A study of Mus musculus with 8 samples.

Results

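Matrix metalloproteinases and their tissue inhibitors were followed in the lungs of 2 closely related mouse substrains after exposure to ozone or to filtered air. All 10 genes of the set, of 8251 genes named on the array, were found: the 7 proteases Mmp2, Mmp3, Mmp8, Mmp9, Mmp12, Mmp13 and Mmp14 and the 3 inhibitors Timp1, Timp2 and Timp3. They were read by 16 probe sets (groups of short oligonucleotides that report 1 transcript) out of 12422 on the array, chosen because the array annotation named 1 of these genes and no other, and 5 genes had several. Each of 4 groups held 2 arrays of whole lung RNA: C3H/HeOuJ in ozone, C3H/HeOuJ in filtered air, C3H/HeJ in ozone and C3H/HeJ in filtered air. The endotoxin receptor Tlr4 is intact in C3H/HeOuJ and defective in C3H/HeJ through an amino acid change, so C3H/HeJ mice respond poorly to endotoxin. An exposure of 72 h is labelled for both C3H/HeOuJ groups, and no duration for C3H/HeJ and no ozone dose for either are given in the sources used here. Whether both arrays of a group stand for separate mice is not labelled, so a p-value here measures array-to-array spread that may be purely technical.

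These proteases are zinc enzymes made as inactive precursors that, once activated, cut collagens, elastin, proteoglycans and many signalling proteins outside the cell. Each inhibitor plugs the active site of a protease, so the balance of both classes governs how fast the matrix between airway and vessel is taken apart. In lung they are known from macrophages, neutrophils, fibroblasts and epithelium, and they are studied in emphysema, fibrosis and injury by inhaled oxidants. Mmp13, Mmp12, Mmp3 and Mmp8 lie close together in a protease gene cluster on mouse chromosome 9.

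The 250 bases before the annotated start of 4 members are shown. They are the inhibitors Timp1 and Timp3, the membrane protease Mmp14, and Mmp3 as a member with an AP-1 motif. The window of Timp2, whose arrays also separated in some comparisons, held neither motif marked here and is not shown. Sequences are those of RefSeq for the reference strain (build GRCm38.p6), 5′ to 3′, and the capitals mark the Ets family motif AGGAAG on either strand and the AP-1 motif TGANTCA, whose reverse complement is itself.
Timp1 (chrX:20869916-20870165, plus strand): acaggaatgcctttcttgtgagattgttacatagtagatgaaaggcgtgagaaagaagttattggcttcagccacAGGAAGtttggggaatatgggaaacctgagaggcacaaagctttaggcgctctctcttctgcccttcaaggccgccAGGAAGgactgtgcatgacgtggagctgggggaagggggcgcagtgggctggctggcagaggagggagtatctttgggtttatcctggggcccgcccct
Timp3 (chr10:86300162-86300411, plus strand): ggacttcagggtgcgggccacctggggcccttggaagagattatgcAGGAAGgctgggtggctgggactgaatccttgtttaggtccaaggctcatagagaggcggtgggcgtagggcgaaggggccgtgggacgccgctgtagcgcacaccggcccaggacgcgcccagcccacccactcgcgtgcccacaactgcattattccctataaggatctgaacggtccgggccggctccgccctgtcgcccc
Mmp14 (chr14:54431348-54431597, plus strand): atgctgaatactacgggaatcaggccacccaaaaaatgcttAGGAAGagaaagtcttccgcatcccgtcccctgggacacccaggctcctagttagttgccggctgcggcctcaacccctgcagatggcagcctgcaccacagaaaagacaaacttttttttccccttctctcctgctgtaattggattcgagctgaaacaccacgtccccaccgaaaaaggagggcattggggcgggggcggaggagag
Mmp3 (chr9:7445572-7445821, plus strand): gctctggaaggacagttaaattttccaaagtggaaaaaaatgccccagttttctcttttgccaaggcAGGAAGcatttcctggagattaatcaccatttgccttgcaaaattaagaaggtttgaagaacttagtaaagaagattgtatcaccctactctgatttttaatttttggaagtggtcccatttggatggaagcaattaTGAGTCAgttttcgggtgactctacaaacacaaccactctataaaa
RefSeq windows were matched for 8 members, 9 windows in all. An AP-1 motif lay in 3 of these, beginning 46 bases before the start in Mmp3, 35 in Mmp13 and 44 in 1 of the windows of Mmp12, and 6.75% of the 32851 mouse windows of the same length hold one. The Ets motif lay in 7 of the 9 and in 29.5% of all windows. Windows of a gene with several starts can overlap, and a match describes letters only.

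No member changed past the threshold in any comparison. All 8 arrays entered 1 limma model of the group means of log2 intensity, values under a floor of 69.6 were set to that floor, and the Benjamini-Hochberg adjustment ran over the 10953 probe sets that exceeded it on 2 or more arrays. By this filter 14 of the 16 member probe sets were tested, with at least 1 for every member. For ozone against air 0 of 14 passed an adjusted p of 0.05 in C3H/HeOuJ, where 0.456% of all probe sets tested did, and 0 of 14 in C3H/HeJ, where the background was 0%. At an unadjusted p under 0.05 it was 1 of 14 in each substrain, against 15.5% of all probe sets in C3H/HeOuJ and 4.35% in C3H/HeJ. Between 2 groups a log2 fold change had a standard error of 0.302 in the median probe set, and among the members it ran from 0.13 for Timp3 to 0.68 for 1 probe set of Mmp2, so changes in the dimmer members were hardly measurable with these arrays.

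The arrays themselves differed in median intensity, control ratios and marker levels. The median intensity was 350.1 and 384.8 on the HeOuJ ozone arrays and 351.6 to 362.6 on the other 6 arrays. The ratio of 5′ to 3′ control intensity, a measure of RNA and labelling quality, was 0.756 and 0.766 for actin on the HeOuJ ozone arrays. It was 0.598 and 0.603 in HeOuJ air, 0.505 and 0.53 in HeJ ozone, and 0.498 and 0.432 in HeJ air. The actin ratio thus did not overlap between any of the 4 groups. For Gapdh the ratio reached 1.18 and 1.34 on the HeOuJ ozone arrays, with 0.775 to 1.06 on the others. The same ratio for the transferrin receptor, 0.49 and 0.289 on the HeOuJ ozone arrays, lay inside the range of 0.184 to 0.518 on the others. The covariate used below rests on actin and Gapdh alone. Its actin part goes with the groups, so values adjusted for it cannot fully separate the control ratio from substrain and exposure. Of 10 epithelial markers 8 were on the array, among them Sftpc, Scgb1a1 and Ager, and all 8 were above the floor on every array. Their summed level was 217577 to 228586 in HeOuJ ozone, 138886 to 169318 in HeOuJ air, 143017 to 169547 in HeJ ozone and 157231 to 190896 in HeJ air. The epithelial sum is mostly Sftpc, Scgb1a1 and Ager. Sftpc read 100639 and 77498 in HeOuJ ozone against 55299 and 39537 in HeOuJ air, while Sftpd read 240 and 98.1 against 328 and 218. The median log2 value of the 8 epithelial markers for ozone over air in C3H/HeOuJ was 0.37. The macrophage receptor Marco was at the floor on all 8 arrays. Summed over 11 neutrophil markers, the level was 8778 to 10477 in HeOuJ ozone and 9201 to 9858 in HeOuJ air. It was 8366 to 9368 in HeJ ozone and 8806 to 8841 in HeJ air. Within that sum Lcn2 read 2695 and 2387 in HeOuJ ozone against 1405 and 1571 in HeOuJ air. S100a8 read 1506 and 1779 against 2936 and 2468, and the median log2 value of the neutrophil markers there was 0.22. Over 11 macrophage markers the sum was 38366 to 43244 in HeOuJ ozone and 31180 to 38408 in HeOuJ air. It was 25024 to 30025 in HeJ ozone and 29548 to 34762 in HeJ air. The macrophage sum is mostly Lyz2, at 32633 and 28866 in HeOuJ ozone against 25055 and 18931 in HeOuJ air, whereas the median log2 value of the 9 tested macrophage markers for ozone over air in C3H/HeOuJ was -0.16. Of these, Chil3, a chitinase-like protein, fell (log2 -1.19, SE 0.18, adjusted p 0.0464 in limma). Cd68 was higher for HeOuJ over HeJ in ozone (log2 1.29, adjusted p 0.0329 in limma) and over both exposures (0.94, adjusted p 0.0322 in limma). Of the other markers, the epithelial keratins Krt18 (1.67) and Krt8 (0.99) passed for ozone over air in C3H/HeOuJ. For HeOuJ over HeJ in ozone Krt18 (1.11), the neutrophil marker Lcn2 (1.48) and the muscle marker Myh6 (0.84) passed. Lcn2 also passed over both exposures (0.94). For HeOuJ over HeJ in ozone the median log2 value was -0.11 for the neutrophil markers and 0.09 for the tested macrophage markers. It was 0.38 for the epithelial and 0.40 for the muscle markers. Over both exposures it was 0.02 for the neutrophil and -0.01 for the macrophage markers. Over 9 fibroblast markers the sum, in the same order of groups, was 23094 to 23826, 26724 to 28348, 25485 to 27274 and 24257 to 27160. The sums were lowest in HeOuJ ozone for 8 endothelial markers too, at 42838 to 43147 there against 45871 to 53773 in HeOuJ air, and 50411 to 51355 in HeJ ozone against 49107 to 54170 in HeJ air. For 4 mast cell markers they were 2990 to 3115 in HeOuJ ozone against 3407 to 3473 in HeOuJ air, and 3497 to 3902 in HeJ ozone against 3702 to 4466 in HeJ air. The mast cell sum is mostly Kit, at 2203 and 2330 in HeOuJ ozone against 2348 and 2567 in HeOuJ air. Cpa3 read 109 and 87.6 against 86.7 and 72.1, and the median log2 value of the mast cell markers there was -0.05. The largest part of the endothelial sum is Eng, at 21384 and 22006 against 24326 and 25970 in the same groups. The median of the 8 endothelial markers there was -0.21. The part of these markers and ratios in the members' values was not tested. In whole lung, fewer cells of a type and less RNA per cell cannot be told apart.

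Among the inhibitors, Timp3 is anchored to the matrix and blocks metalloproteinases as well as the sheddase Adam17. Its probe set read 5918 and 6006 in HeOuJ ozone against 7560 and 7972 in HeOuJ air. It read 8739 and 8736 in HeJ ozone against 6280 and 7325 in HeJ air. The ozone and air arrays did not overlap in either substrain, and ozone was on the low side in C3H/HeOuJ and on the high side in C3H/HeJ. The log2 fold change of ozone over air was -0.38 (SE 0.13, adjusted p 0.223 in limma) in C3H/HeOuJ, with a 95% interval from -0.68 to -0.08. In C3H/HeJ it was 0.37 (SE 0.13, adjusted p 1 in limma), with an interval from 0.07 to 0.66. The difference of the ozone effects, HeOuJ minus HeJ, was -0.75 (SE 0.18, unadjusted p 0.0033, adjusted p 0.216 in limma) and did not pass. With the 5′/3′ control ratio as a covariate the value was -0.09 (SE 0.26) in C3H/HeOuJ, 0.42 (SE 0.13) in C3H/HeJ and -0.51 (SE 0.25) for the difference.

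Timp1, a soluble inhibitor that also binds the precursor of Mmp9, read 2488 and 2189 in HeOuJ ozone against 2299 and 2732 in HeOuJ air. In C3H/HeJ it read 1650 and 2022 in ozone against 1673 and 1683 in air. All 4 HeOuJ arrays lay above all 4 HeJ arrays, and ozone and air overlapped in both substrains. The log2 fold change of ozone over air was -0.10 (SE 0.16) in C3H/HeOuJ and 0.12 (SE 0.16) in C3H/HeJ, with 95% intervals from -0.46 to 0.25 and from -0.23 to 0.48. A second probe set of Timp1, 162107_r_at, was above the floor on 1 array only and was not tested.

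Timp2, an inhibitor that also helps Mmp14 to activate the Mmp2 precursor, read 3407 and 2634 in HeOuJ ozone against 2716 and 2327 in HeOuJ air by its probe set 93507_at. In C3H/HeJ it read 2073 and 1719 in ozone against 2416 and 1463 in air. The exposures overlapped in both substrains, and the log2 fold change of ozone over air was 0.25 (SE 0.24) in C3H/HeOuJ and 0.01 (SE 0.24) in C3H/HeJ. With the control ratio as a covariate the value in C3H/HeOuJ turned to -0.87 (SE 0.30). A dimmer probe set of Timp2, 160116_at, was at the floor on both HeOuJ ozone arrays, with deposited values of 68.9 and 33.1, and read 86 and 171 in HeOuJ air. With the low group set at the floor its log2 value there was -0.80 (SE 0.46), opposite in sign to 93507_at, while in C3H/HeJ its exposures overlapped. The third, 161515_i_at, was above the floor on 1 array and was not tested.

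**Figure D1:**
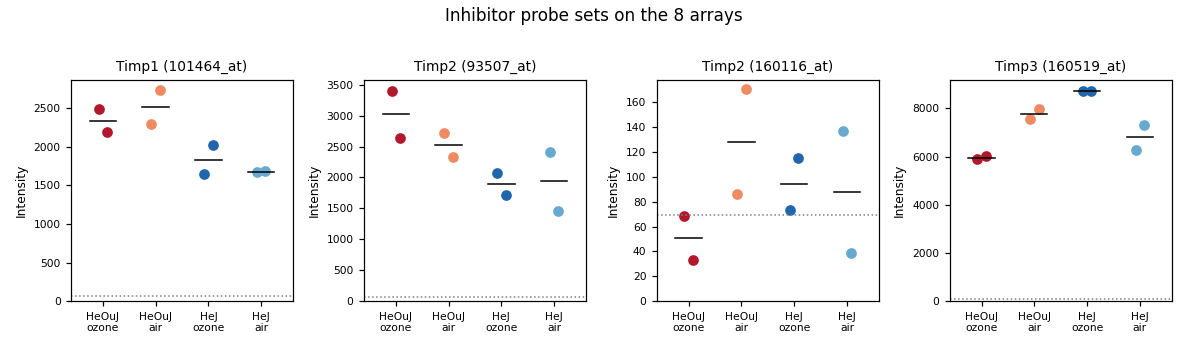
Deposited intensity (linear scale from 0) of the 4 tested inhibitor probe sets on each of the 8 arrays; points are arrays, the bar is the mean of the 2 arrays of a group and the dotted line the floor of 69.6. Timp1 lies higher on the 4 HeOuJ arrays than on the 4 HeJ arrays, and Timp3 lies at 5918 and 6006 in HeOuJ ozone but at 8739 and 8736 in HeJ ozone.

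Among the proteases, Mmp14 sits in the cell membrane, cuts collagen and activates the Mmp2 precursor. It read 1695 and 2386 in HeOuJ ozone against 2130 and 2238 in HeOuJ air, and 3008 and 3118 in HeJ ozone against 2902 and 2588 in HeJ air. The exposures overlapped in C3H/HeOuJ and not in C3H/HeJ, with log2 fold changes of -0.12 (SE 0.17) and 0.16 (SE 0.17). All 4 HeOuJ arrays lay under all 4 HeJ arrays.

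Mmp2, a gelatinase of mesenchymal cells, was read by a pair of dim probe sets. One of them, 95663_at, was at the floor on both HeOuJ ozone arrays, with deposited values of 24.1 and 32.2, and read 82.1 and 138 in HeOuJ air. It read 103 and 116 in HeJ ozone and was at the floor in HeJ air, with deposited values of 32.2 and 27.1. Against the floor, ozone was at least 1.53-fold lower in C3H/HeOuJ and at least 1.57-fold higher in C3H/HeJ, with adjusted p-values of 0.393 and 1 in limma. The difference of the ozone effects was -1.27 (SE 0.45, adjusted p 0.347 in limma) with both low groups set at the floor. With the control ratio as a covariate the log2 value in C3H/HeOuJ was -0.03 (SE 0.69), so no direction was left there, while it was 0.76 (SE 0.34) in C3H/HeJ and -0.79 (SE 0.68) for the difference. HeOuJ over HeJ in ozone was -0.65 (SE 0.32) for this probe set, and 0.25 (SE 1.01) with the covariate. The other probe set, 161509_at, was above the floor on 5 arrays with no order by group: it read 197 and 13.8 in HeOuJ ozone, 213 and 59.5 in HeOuJ air, 149 and 93.3 in HeJ ozone, and 30.1 and 148 in HeJ air. Its difference of the ozone effects was -0.27 (SE 0.96).

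Such a reversal, with ozone and air arrays apart in both substrains but in opposite directions, was seen for 2 of the 14 member probe sets and for 8.11% of all probe sets tested.

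Mmp9, the gelatinase of neutrophils and macrophages, had arrays of the same group that lay far apart by 99957_at, except in HeOuJ air. Its probe set 99957_at read 171 and 338 in HeOuJ ozone against 321 and 347 in HeOuJ air, and 112 and 403 in HeJ ozone against 330 and 183 in HeJ air. The exposures overlapped in both substrains, with log2 fold changes of ozone over air of -0.47 (SE 0.63) in C3H/HeOuJ and -0.21 (SE 0.63) in C3H/HeJ. With 1 array left out the C3H/HeJ value ran from -1.14 without HeJ ozone 1b to 0.71 without HeJ ozone 1a, and the C3H/HeOuJ value from -0.96 without HeOuJ ozone 1b to 0.02 without HeOuJ ozone 1a. The dimmer probe set 162369_f_at was above the floor on 4 arrays, with 152 and 54.4 in HeOuJ ozone against 75.9 and 24 in HeOuJ air, and 79.6 and 100 in HeJ ozone against 67.7 and 59.1 in HeJ air. Its log2 fold changes of ozone over air were 0.50 (SE 0.38) in C3H/HeOuJ and 0.36 (SE 0.38) in C3H/HeJ, opposite in sign to 99957_at. Its exposures did not overlap in C3H/HeJ, where both air arrays were at the floor. The 95% intervals of both probe sets held 0 in either substrain.

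Mmp12 is the elastase of macrophages, and both of its probe sets name the same transcript record on the array. By 95339_r_at it read 375 and 392 in HeOuJ ozone against 416 and 428 in HeOuJ air, and 421 and 671 in HeJ ozone against 422 and 626 in HeJ air. The exposures overlapped in C3H/HeJ, where the arrays of a group lay far apart, and stood apart in C3H/HeOuJ. By 95338_s_at it read 298 and 133 in HeOuJ ozone against 87 and 157 in HeOuJ air, and 192 and 156 in HeJ ozone against 217 and 129 in HeJ air. In C3H/HeOuJ the probe sets gave log2 fold changes of -0.14 (SE 0.32) and 0.77 (SE 0.51), so their directions disagreed. Their 95% intervals, from -0.87 to 0.59 and from -0.41 to 1.94, overlapped and both held 0. With 1 array left out the value of 95338_s_at in C3H/HeOuJ ran from 0.18 without HeOuJ ozone 1a to 1.35 without HeOuJ ozone 1b, and with the covariate it was 0.00 (SE 1.13).

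Mmp3, a stromelysin of fibroblasts, read 458 and 428 in HeOuJ ozone against 438 and 393 in HeOuJ air. It read 398 and 444 in HeJ ozone against 505 and 545 in HeJ air, where the exposures did not overlap, with a log2 fold change of -0.32 (SE 0.25, adjusted p 1 in limma). The collagenase Mmp13 read 103 and 112 in HeOuJ ozone against 119 and 105 in HeOuJ air, and 78 and 108 in HeJ ozone against 124 and 54.1 in HeJ air. The neutrophil collagenase Mmp8 was above the floor on 2 arrays, at 84 on HeOuJ ozone 1b and 80.9 on HeJ air 1a, so no level can be given for it.

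**Figure D2:**
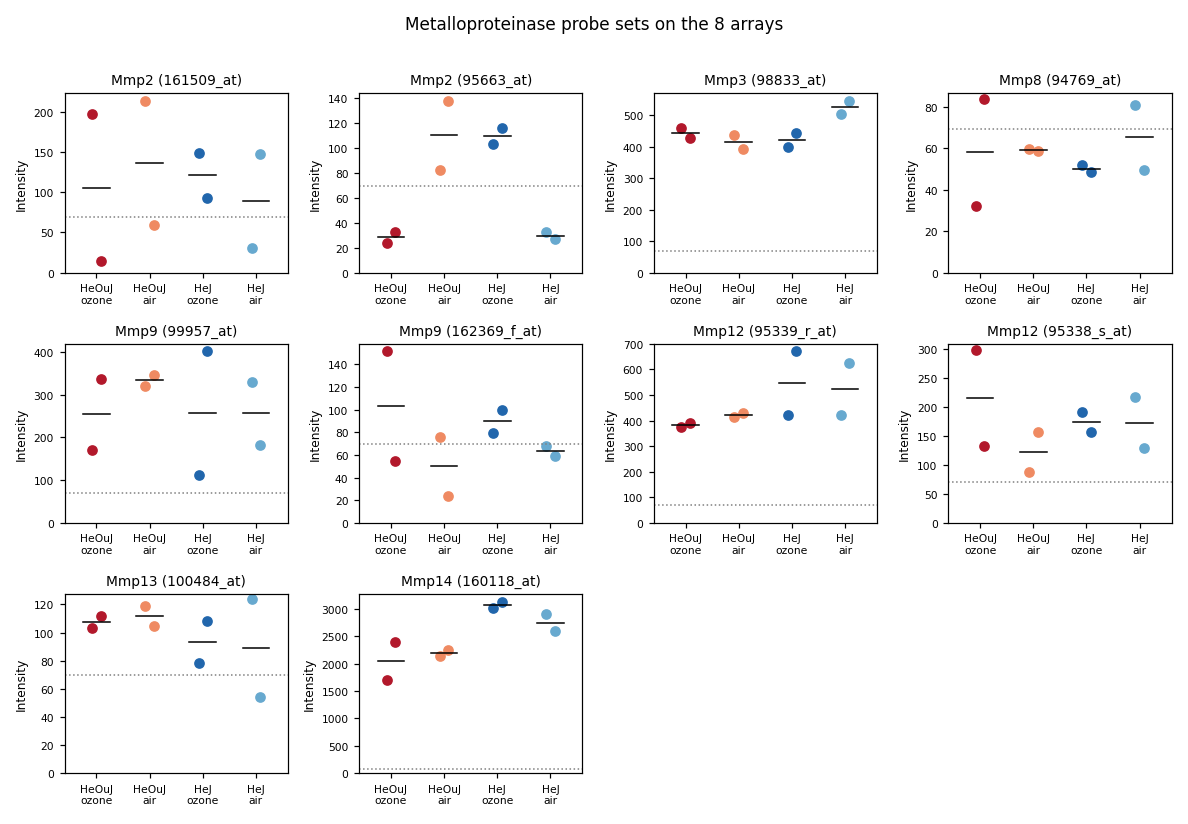
Deposited intensity (linear scale from 0) of the 10 metalloproteinase probe sets on each of the 8 arrays; points are arrays, the bar is the mean of the 2 arrays of a group and the dotted line the floor of 69.6. Mmp14 is lower on the 4 HeOuJ arrays, probe set 95663_at of Mmp2 exceeds the floor in HeOuJ air and HeJ ozone only, and the points of Mmp9 (99957_at) run from 112 to 403 within HeJ ozone alone.

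Over the 14 probe sets, ozone against air gave 5 higher and 9 lower log2 values in C3H/HeOuJ, from -0.80 to 0.77, and 9 higher and 5 lower in C3H/HeJ, from -0.32 to 0.65. Ozone and air arrays stood apart for 4 of 14 in C3H/HeOuJ, where 41.8% of all probe sets did, and for 5 of 14 in C3H/HeJ, where 34.4% did. With 1 probe set per gene the median log2 fold change of the 10 members was -0.08 in C3H/HeOuJ and 0.03 in C3H/HeJ, beside 0.02 and 0.01 over all probe sets. For the difference of the ozone effects 0 of 14 passed in limma (0% of all) and 2 of 14, Timp3 and 95663_at of Mmp2, had an unadjusted p under 0.05 (11.4% of all). For the mean ozone effect of both substrains 0 of 14 passed (0.0183% of all), 0 of 14 had an unadjusted p under 0.05 (9.25% of all), and 0 of 14 had ozone and air arrays apart (3.23% of all). The narrowest intervals of that mean effect were those of Timp1 (log2 0.01, 95% interval -0.24 to 0.26), Timp3 (-0.01, -0.22 to 0.20) and Mmp14 (0.02, -0.25 to 0.30). Timp2 by 93507_at, also bright, had 0.13 with a wider interval (-0.26 to 0.52). The Timp3 mean averages opposite values, -0.38 in C3H/HeOuJ and 0.37 in C3H/HeJ.

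**Figure D3:**
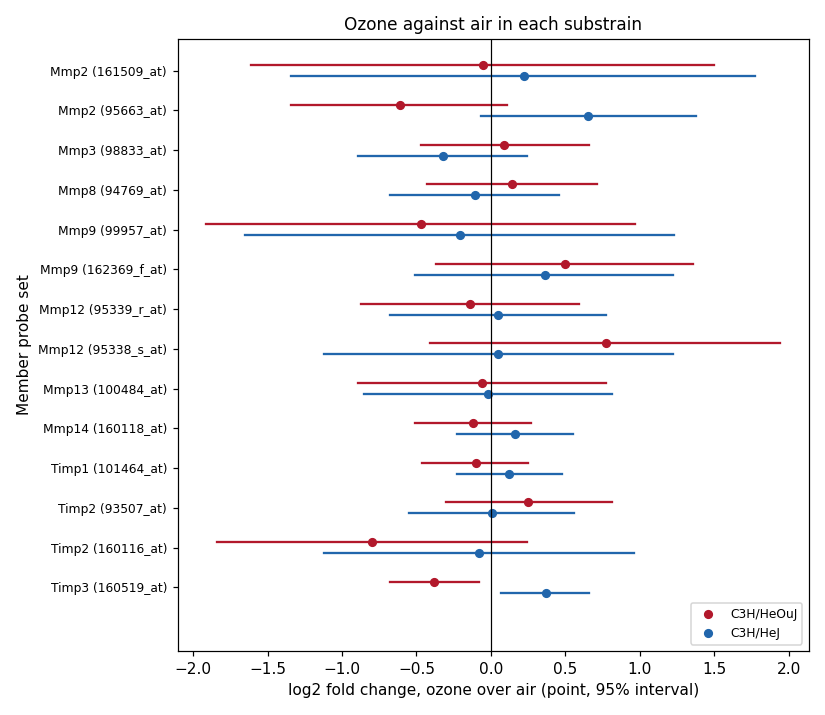
Log2 fold change of ozone over air (x axis) for each of the 14 member probe sets (y axis) in C3H/HeOuJ and in C3H/HeJ; points are limma estimates and bars their 95% intervals. Only the Timp3 intervals leave 0 out, at -0.68 to -0.08 in C3H/HeOuJ and 0.07 to 0.66 in C3H/HeJ, and neither change passed the adjusted threshold.

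Between the substrains, Timp1, Mmp14 and probe set 93507_at of Timp2 had 95% intervals that left 0 out over both exposures, though none passed. The dimmer Timp2 probe set, 160116_at, had -0.05 (SE 0.32, 95% interval -0.78 to 0.69). Over both exposures Timp1 averaged 2427 ± 238 on the HeOuJ arrays and 1757 ± 177 on the HeJ arrays (SD, n = 4 each), a log2 fold change of 0.47 (SE 0.11, unadjusted p 0.0025, adjusted p 0.145 in limma). Mmp14 averaged 2112 ± 298 on the HeOuJ arrays and 2904 ± 228 on the HeJ arrays (SD, n = 4 each), a log2 fold change of -0.47 (SE 0.12, adjusted p 0.17 in limma). Timp2 by 93507_at had 0.54 (SE 0.17, adjusted p 0.248 in limma), with 1 HeJ air array above the lowest HeOuJ array, and with the control ratio as a covariate it turned to -0.76 (SE 0.32). With that covariate Timp1 had 0.65 (SE 0.37) and Mmp14 -0.31 (SE 0.41).

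In air alone Timp1 was 0.58 (SE 0.16, adjusted p 0.639 in limma) and Mmp14 -0.33 (SE 0.17, adjusted p 0.937 in limma). The HeOuJ ozone arrays do not enter these differences, but they do enter the shared estimate of spread. The actin control ratio also set the substrains apart in air, at 0.598 and 0.603 for HeOuJ against 0.498 and 0.432 for HeJ. With the covariate the values in air were 0.70 (SE 0.28) for Timp1 and -0.23 (SE 0.31) for Mmp14. In ozone the values were 0.35 (SE 0.16) for Timp1, -0.61 (SE 0.17, adjusted p 0.126 in limma) for Mmp14, 0.67 (SE 0.24) for Timp2 by 93507_at and -0.55 (SE 0.13, adjusted p 0.0845 in limma) for Timp3. By 160116_at, at the floor on both HeOuJ ozone arrays, Timp2 had -0.41 (SE 0.46) in ozone, the opposite sign to 93507_at. The Timp3 value in air was 0.19 (SE 0.13). With the covariate the Timp3 value in ozone was -0.10 (SE 0.38). These comparisons share arrays with the ozone effects given before and are not separate evidence.

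In counts, 0 of 14 passed in limma for HeOuJ against HeJ in ozone (0.977% of all), in air (0.0456%) and over both exposures (0.155%). At an unadjusted p under 0.05 there were 3, 1 and 3 of 14, beside 18%, 5.71% and 13% of all probe sets. The arrays of the substrains did not overlap for 7 of 14 in ozone (45.9% of all), for 5 of 14 in air (32.7%) and, over both exposures, for 2 of 14, Timp1 and Mmp14 (4.7%).

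**Figure D4:**
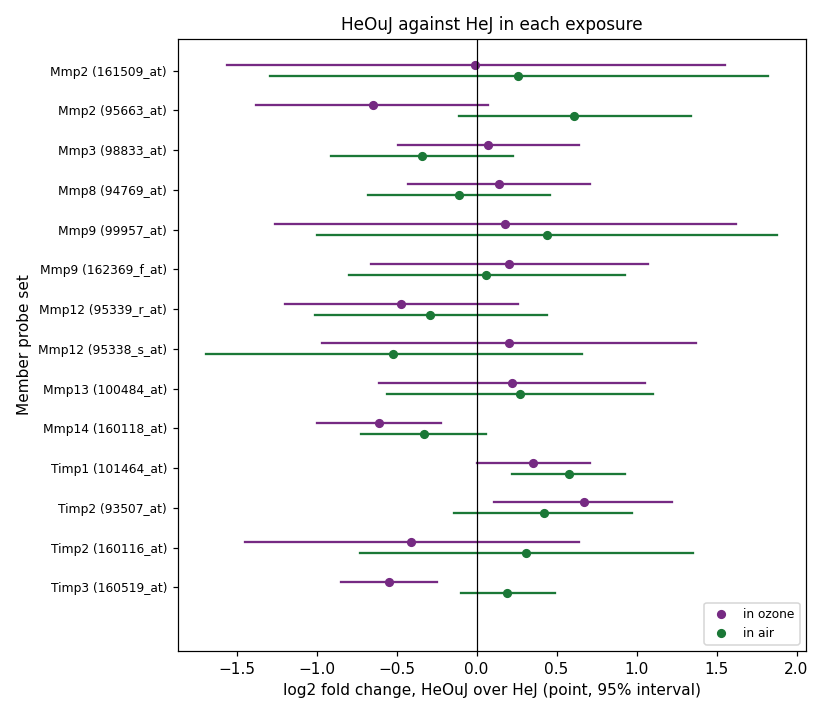
Log2 fold change of C3H/HeOuJ over C3H/HeJ (x axis) for each of the 14 member probe sets (y axis), in ozone and in air; points are limma estimates and bars their 95% intervals. Timp1 lies on the high side and Mmp14 on the low side in both exposures, while Timp3 lies at -0.55 in ozone and 0.19 in air.

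Genes around the members were read from 5 lists, 1 probe set per gene. Among 9 tested of 27 other metalloproteinases, 1 passed: Adam19, a membrane protease that sheds growth factors, fell with ozone in C3H/HeOuJ. Of all probe sets, 0.456% passed there, and 0.977% for HeOuJ over HeJ in ozone, where Adam19 passed too. It read 451 and 477 in HeOuJ ozone against 963 and 1012 in HeOuJ air, and 917 and 999 in HeJ ozone against 955 and 1083 in HeJ air. Both HeOuJ ozone arrays lay under all others, with log2 values of -1.09 (SE 0.17, adjusted p 0.0464 in limma) for ozone over air in C3H/HeOuJ and -1.05 (adjusted p 0.0474 in limma) for HeOuJ over HeJ in ozone. Each call was kept in 5 of 16 alternatives. Mmp11, a stromelysin of connective tissue, read 507 and 587 in HeOuJ ozone against 306 and 274 in HeOuJ air, and 258 and 301 in HeJ ozone against 556 and 519 in HeJ air. Its difference of the ozone effects was 1.86 (SE 0.39, adjusted p 0.176 in limma). The membrane proteases Adam8 and Adam12 had log2 values of 1.81 (SE 0.70) for that difference and 1.43 (SE 0.49) for HeOuJ over HeJ in ozone, and neither passed.

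Among 6 tested of 11 other inhibitors none passed in any of the 7 comparisons. The membrane inhibitor Reck had a log2 fold change of -0.50 (SE 0.13, adjusted p 0.177 in limma) for HeOuJ over HeJ, and the antiprotease Slpi 0.52 (SE 0.15, adjusted p 0.135 in limma) in ozone. The serpin Serpina3n had -0.44 (SE 0.16) for ozone over air in C3H/HeOuJ, and Tfpi2, a Kunitz-type inhibitor, 1.70 (SE 0.50) for HeOuJ over HeJ in air. Among 16 tested of 18 activators and surface partners none passed. The plasmin precursor Plg had -1.50 (SE 0.35, adjusted p 0.104 in limma) for ozone over air in C3H/HeOuJ. Over both exposures HeOuJ over HeJ was 0.59 (SE 0.22) for Cd44, a hyaluronan receptor that docks Mmp9 on cells, and 0.37 (SE 0.16) for the plasminogen activator Plat. Lrp1, a receptor that clears proteases, had -0.49 (SE 0.16) for ozone over air averaged over the substrains.

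Among 27 tested of 28 matrix substrates none passed, with 7 higher and 20 lower in C3H/HeOuJ ozone (median log2 -0.21, beside 0.02 over all probe sets) and 12 higher and 15 lower in C3H/HeJ ozone (median -0.01, beside 0.01). Col6a1, a collagen VI chain, had -0.88 (SE 0.17, adjusted p 0.0554 in limma) for HeOuJ over HeJ in ozone, and the elastic fibre protein Eln -0.76 (SE 0.25, adjusted p 0.162 in limma). In the same comparison the collagen I chain Col1a1 had -0.56 (SE 0.15, adjusted p 0.121 in limma), and fibronectin, Fn1, had 0.39 (SE 0.10, adjusted p 0.151 in limma) for HeOuJ over HeJ over both exposures. The 9 fibroblast markers, 6 of them also in this list, had a median of -0.24 in C3H/HeOuJ, and the 8 endothelial markers -0.21. For HeOuJ over HeJ in ozone the medians were -0.36 for the substrates, -0.29 for the fibroblast markers and -0.44 for the endothelial markers. The part of these cells in the substrates' values was not tested.

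Among 17 tested of 18 inducers of protease genes, 1 passed, in 1 comparison, HeOuJ over HeJ in ozone, where 0.977% of all probe sets passed. Tnf, an inflammatory cytokine, was at 231 and 247 in HeOuJ ozone and at the floor in HeJ ozone, at least 3.43-fold higher (adjusted p 0.0479 in limma), and the call was kept in 4 of 16 alternatives. In HeOuJ air it read 103 and 73.4, and ozone over air there had a log2 value of 1.46 (adjusted p 0.0781 in limma). Il1b had -0.97 (SE 0.28, adjusted p 0.358 in limma) for ozone over air, averaged over the substrains. Over both exposures HeOuJ over HeJ was -0.54 (SE 0.17) for the NF-kappaB subunit Rela and -1.56 (SE 0.63) for the growth factor Tgfb1, and both turned sign with the control ratio as a covariate.

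**Figure D5:**
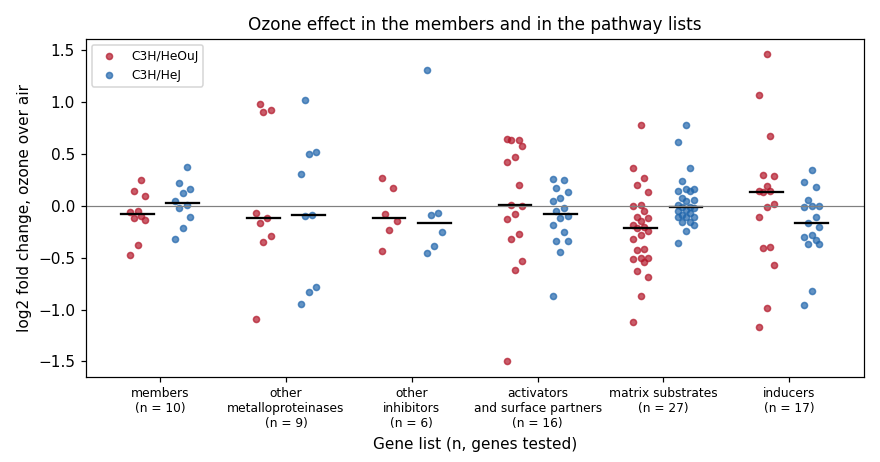
Log2 fold change of ozone over air (y axis) for the 10 members and the tested genes of the 5 lists (x axis), 1 probe set per gene; points are genes, red for C3H/HeOuJ and blue for C3H/HeJ, and the bar is the median. The members lie close to 0, at medians of -0.08 and 0.03, and the matrix substrates have a median of -0.21 in C3H/HeOuJ.

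The 3 member probe sets that varied most over the 8 arrays were 161509_at of Mmp2, 99957_at of Mmp9 and 95338_s_at of Mmp12, with SDs of 0.69, 0.657 and 0.537 on the log2 scale. The profiles nearest to them, by the root mean square difference of centred log2 values over 8 arrays, were those of Chmp4b for Mmp2 (0.254), Sstr5 for Mmp9 (0.236) and Elp5 for Mmp12 (0.0743), followed by Aldh1a3 (0.264), Ddx4 (0.332) and Vpreb3 (0.156). With 10953 probe sets and 8 arrays, such near profiles are given as a description only.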

How the data were processed

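Whole mouse lung RNA was measured on 8 oligonucleotide arrays, 2 for each of 4 groups taken from the sample titles. The deposited table gives a linear intensity for each probe set on each array. Their means after trimming 2% at each end lay between 799.87 and 799.88, so the authors had scaled them to a common level; the software and centring are not given in the sources used here, and the images were not used here.

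After 66 controls were set aside, values under the 20th percentile (69.63) were set to that floor before taking log2. Genes were named from the 2016 platform annotation, which gave 1 gene to 10833 of 12422 probe sets; 396 had more than 1 gene and 1193 were unnamed. The 10953 probe sets that exceeded it on 2 or more arrays entered limma 3.58.1 under R 4.3.3 (4 group means, eBayes with an intensity trend, 4 residual degrees of freedom), with 7 contrasts and Benjamini-Hochberg adjustment per contrast; the model was tested on simulated data. A group at the floor on both arrays gives only a bound. The 10 members, the 5 gene lists, the markers and the tests were chosen with earlier results of these data known. Every member probe set is described, with up to 4 genes of smallest p per list; for members, the probe set of highest mean stands for the gene. Alternatives were quantile normalisation, median centring, a floor at the 10th percentile, no filter, no variance trend, only the arrays compared, replicate letters as a block, the mean log2 5'/3' ratio of the actin and Gapdh controls as a covariate, and leaving out each array. Promoter motifs were searched in RefSeq windows. Figures were drawn with matplotlib 3.10.9 under Python 3.11.15.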

Additional observations from a re-analysis of the deposited data

Results flagged for a closer look

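Every member probe set and every tested gene of the 5 lists was screened for ozone arrays on 1 side of the air arrays in C3H/HeOuJ and on the opposite side in C3H/HeJ, without overlap in either. This was seen for 2 of 14 member probe sets and 5 of 75 list genes, beside 8.11% of all probe sets tested. The difference of the ozone effects on the log2 scale, HeOuJ minus HeJ, was -0.75 (SE 0.18, adjusted p 0.216 in limma) for Timp3 and -1.27 (SE 0.45, adjusted p 0.347 in limma) for probe set 95663_at of Mmp2. Among the list genes it was 1.86 (SE 0.39, adjusted p 0.176 in limma) for Mmp11, -0.60 (SE 0.26, adjusted p 0.429 in limma) for Adam9 and 0.56 (SE 0.21, adjusted p 0.387 in limma) for the antiprotease Slpi. It was 0.52 (SE 0.28, adjusted p 0.529 in limma) for the cysteine protease inhibitor Cst3 and -1.41 (SE 0.55, adjusted p 0.39 in limma) for Lum, a collagen-binding proteoglycan. None of these interactions passed. Adam9, Cst3 and Lum fall outside the rule for named genes and were chosen after their values were seen.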

How the results depend on the processing

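Under every alternative run, no member probe set passed in any limma comparison that the alternative covered. Without the filter all 16 member probe sets entered, and the fit on only the arrays compared was run for comparisons between 2 groups. For HeOuJ against HeJ in ozone, Timp3 had an adjusted p of 0.0699 in limma with quantile normalisation. Without HeOuJ ozone 1b, Mmp14 had a log2 value of -0.85 in that comparison. The 98 member fold changes had 1554 values under the alternatives, of which 141 did not keep the sign of the reported one, some of them at 0 after rounding. In 4 of the 141 both values exceeded their standard errors, all for Timp2 (93507_at) with the control ratio as a covariate: -0.87 for ozone over air in C3H/HeOuJ, and for HeOuJ over HeJ -1.10 in ozone, -0.42 in air and -0.76 over both exposures. Rela and Tgfb1 also turned over both exposures, to 0.45 and 2.56; the cause was not tested. With the lower floor the difference of the ozone effects of Mmp2 (95663_at) was -3.59, since its low groups then sit at a lower bound, and with the covariate it was -0.79 (SE 0.68). The replicate letters were not shown to pair the arrays: the 1b minus 1a differences of 2 groups correlated at -0.0101 to 0.138 over probe sets. With the replicate block the smallest adjusted p of a member was 0.0753.

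Counts over all probe sets were less stable. For ozone against air in C3H/HeOuJ the 50 calls became 0 with only the arrays compared, without a variance trend and with the covariate, and 0 to 22 with 1 array left out (22 when HeJ air 1a was left out, 21 for HeJ air 1b, 0 for each of the other arrays). In C3H/HeJ 0 became 8 without the filter. For the difference of the ozone effects 0 became 3 with quantile normalisation, 3 with the lower floor and 10 without the filter. For the mean ozone effect 2 became 1 with median centring, 5 with the lower floor, 14 without the filter, and 0 without a trend, with the replicate block, with the covariate and without any 1 array. For HeOuJ against HeJ in ozone 107 became 57 without the filter, 185 with the replicate block, and 0 without a trend, with only the arrays compared and with the covariate; with 1 array left out it was 0 to 31, namely 8 for either HeOuJ air array, 31 for HeJ air 1a, 30 for HeJ air 1b and 0 for each ozone array. In air 5 became 8 with median centring, 11 without the filter, 3 without a trend, and 0 with only the arrays compared, with the covariate, without any 1 array and, in a fit added after the data were seen, without both HeOuJ ozone arrays. Over both exposures 17 became 40 without the filter, 29 with the replicate block, 7 without a trend, 0 with the covariate and 1 to 15 with 1 array left out (15 without HeOuJ air 1b, 2 without HeJ air 1a, 1 without any other). The arrays' number limits what the dim members can show.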
